A study of Mus musculus with 8 samples.

Results

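Transcripts of 10 digestive enzymes and cofactors that the exocrine pancreas secretes (Cela1, Cela2a, Cela3b, Ctrb1, Prss2, Cpa1, Cpb1, Pnlip, Clps and Cel) were followed in the RNA of 8 mouse livers. The genes were chosen by their array ratios in these same livers, from earlier results of these data, so their levels are given as a description, and no test of them is used as support. Every probe-set annotated to one of them was kept, which gave 17 probe-sets for 9 of the 10 genes, set among 18201 genes that the arrays read. Of the 17 probe-sets, 16 carried 1 gene symbol and 1 was shared between Cela3a and Cela3b. Pnlip, the triglyceride lipase of pancreatic juice, had no annotated probe-set and was not analysed here. The comparison asks whether these transcripts stood high in a single liver or were a signal that the livers shared.

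The txnrd1-/- livers came from 4 txnrd1 cond/- mice with 1 copy of albCre (animals 69, 72, 73 and 81). The controls were 4 txnrd1 cond/+ mice with 0 copies of albCre (animals 70, 71, 80 and 82), so they carried 1 conditional and 1 wild-type allele and no Cre. AlbCre drives Cre recombinase from the albumin promoter in hepatocytes, and the other cells of a txnrd1-/- liver keep the conditional allele. All 8 animals were young males, singly housed for 10 days and harvested at the same time of day, with 1 Affymetrix array per animal.

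Pancreatic acinar cells make digestive enzymes as inactive zymogens, store them in granules and release them into the duct that leads to the intestine. A few secreted proteins account for much of the mRNA of such a cell, and hepatocytes are not known as a source of most of them. The transcription factor complex PTF1 binds an E-box and a TC-box that lie close together upstream of many acinar genes, and the nuclear receptor Nr5a2 acts with it on several of them.

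Promoter windows of 300 bases around the gene start were available for 9 of the 10 genes (RefSeq, GRCm38.p6), and not for Clps. The E-box letters CANNTG, read on both strands, were in 8 of the 9 windows, against 72.3% of all 32851 windows of that length. The TC-box letters TTTCCC were in 6 of 9, against 25.2% of all windows. The Nr5a2 letters CAAGGTCA were in 1 of 9, the window of Cel, against 1.56% of all windows. An E-box and a TC-box within 30 bases of each other were found for Cel, Cela1, Cela2a, Cpa1 and Ctrb1, which is 5 of 9, against 6.89% of all windows. These matches describe the letters only. Ctrb1 and Cela1 are shown because both hold the pair while their ratios in animal 71 differed widely. Cpb1 is shown because it holds no such pair and had the highest ratio of the 9 genes there, averaged over probe-sets with 1 symbol. Whether the letters bear on the ratios was not tested. Capitals mark the letters of each pair, on either strand, and each window runs 5′ to 3′ on the strand of its gene. They lie on the minus strand at chr8:111690961-111691260 for Ctrb1, chr15:100687871-100688170 for Cela1 and chr3:20275684-20275983 for Cpb1.
Ctrb1: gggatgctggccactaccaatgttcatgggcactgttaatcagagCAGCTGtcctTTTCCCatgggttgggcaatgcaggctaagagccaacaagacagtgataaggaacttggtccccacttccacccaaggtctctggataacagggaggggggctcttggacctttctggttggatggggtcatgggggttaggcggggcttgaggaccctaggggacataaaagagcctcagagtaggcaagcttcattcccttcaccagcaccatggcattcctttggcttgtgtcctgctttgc
Cela1: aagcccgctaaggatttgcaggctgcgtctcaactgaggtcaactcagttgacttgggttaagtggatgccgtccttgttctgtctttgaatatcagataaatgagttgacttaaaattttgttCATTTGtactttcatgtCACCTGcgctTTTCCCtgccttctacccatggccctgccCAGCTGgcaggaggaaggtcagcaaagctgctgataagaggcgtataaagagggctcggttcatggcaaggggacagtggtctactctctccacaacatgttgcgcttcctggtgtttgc
Cpb1: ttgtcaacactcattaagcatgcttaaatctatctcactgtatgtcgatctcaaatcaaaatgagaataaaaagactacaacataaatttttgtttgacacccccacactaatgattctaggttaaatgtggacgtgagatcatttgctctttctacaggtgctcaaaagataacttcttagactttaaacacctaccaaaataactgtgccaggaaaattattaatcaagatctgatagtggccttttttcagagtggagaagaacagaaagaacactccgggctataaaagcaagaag

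The deposited values were ratios, in which each probe-set was divided by about its median over the 8 livers and each array had a median between 0.997 and 0.999. A ratio of 1 is therefore the usual value of that probe-set in these livers, and it does not tell whether the mRNA was present or whether the probe-set was reading background. Levels of different genes cannot be compared on this scale. In whole-liver RNA, fewer cells of a type and less RNA per cell cannot be told apart. One of the 3 Txnrd1 probe-sets was lower in every txnrd1-/- liver, at 0.755 to 0.965, against 1.028 to 1.332 in controls. Another was higher in every txnrd1-/- liver, at 1.101 to 2.002, against 0.410 to 0.900 in controls. The third ran from 0.598 to 0.997 in txnrd1-/- livers and from 0.993 to 1.511 in controls. It overlapped only between txnrd1-/- animal 69 (0.997) and control animal 71 (0.993). The position of the 3 probe-sets relative to the deletion was not known, so they do not check the genotype labels. Cbr3, a carbonyl reductase, stood 6.68-, 5.55-, 8.74- and 20.4-fold above its median in txnrd1-/- animals 69, 72, 73 and 81, and in no control did it reach 4-fold.

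All 17 probe-sets were highest in the liver of animal 71, a txnrd1 cond/+ control, where they stood between 2.756 and 95.96 with a median of 17.59. In the other 7 livers the same probe-sets lay between 0.381 and 1.669. At the level of genes, 9 of 9 were highest in animal 71, against 9.61% of all genes on the array. The genotypes overlapped in all 17, since at least 1 other control lay below the highest txnrd1-/- liver. The share of all probe-sets that overlap in this way was not counted, so nothing is read from that number.

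**Figure D1:**
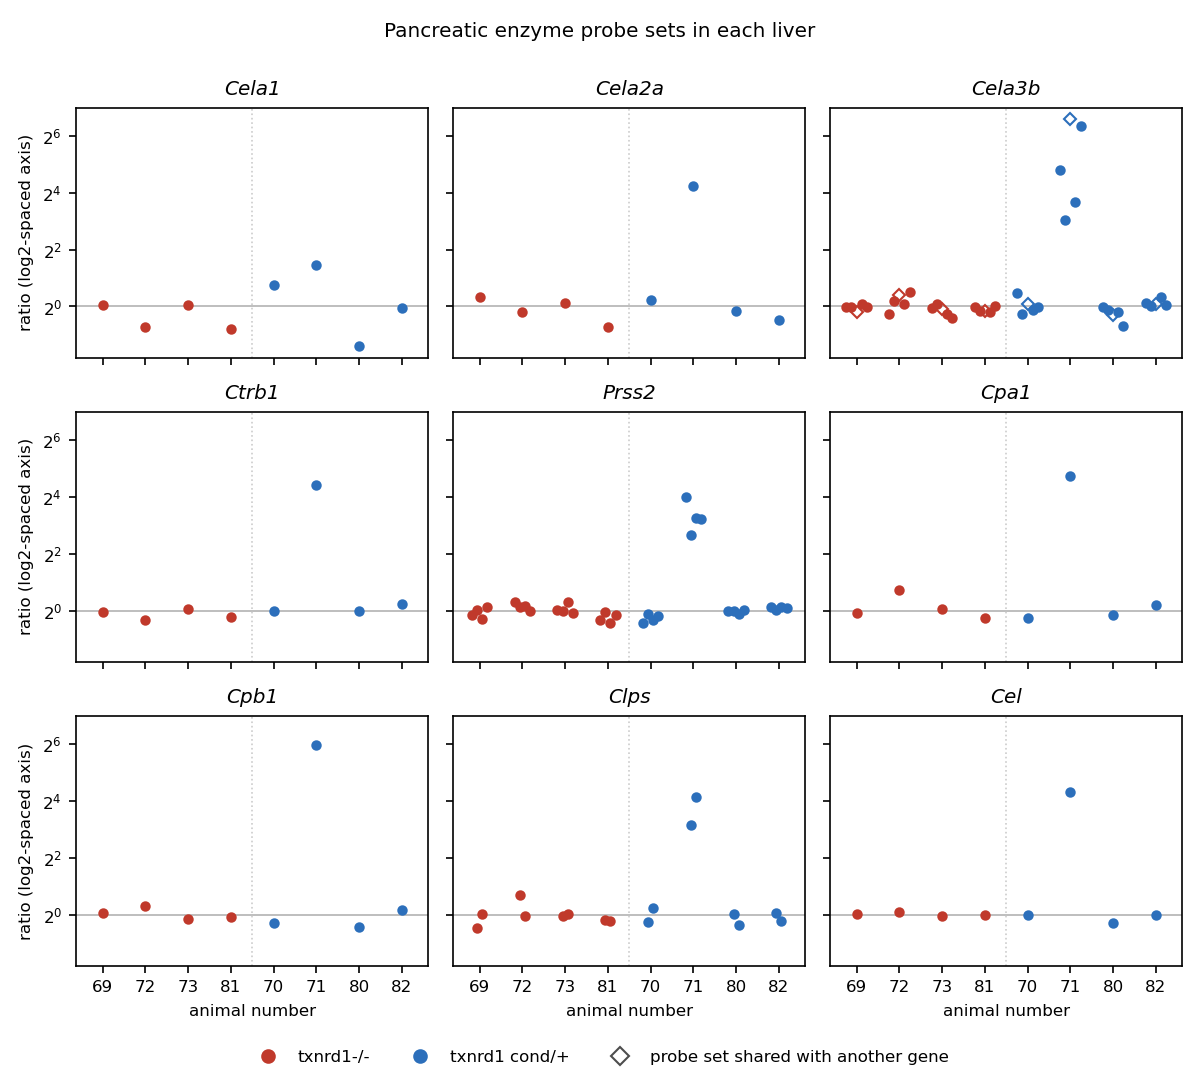
Ratio of each probe-set of the 9 measured enzymes (log2-spaced vertical axis) in each liver (animal numbers, txnrd1-/- left of the dotted line in red, txnrd1 cond/+ right in blue); each point is 1 probe-set on 1 array and open diamonds are the probe-set shared with Cela3a. Animal 71 is highest in every panel, up to 95.96 for the shared Cela3b probe-set; it stands apart in all but Cela1, where it is at 2.756 and the other livers run from 0.381 to 1.669.

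Serine proteases formed the largest class. Ctrb1, the zymogen of chymotrypsin B, stood at 0.960, 0.795, 1.030 and 0.862 in txnrd1-/- animals 69, 72, 73 and 81, against 0.992, 21.37, 1.004 and 1.168 in txnrd1 cond/+ animals 70, 71, 80 and 82. Only animal 71 was high, at 21.5-fold the median of the other 7 livers. Cela2a, a pancreatic elastase, read 1.252, 0.879, 1.098 and 0.606 in the txnrd1-/- livers, in the same order of animals, and 1.173, 18.89, 0.899 and 0.724 in the controls. Animal 71 was again alone, at 21.01-fold the median of the other 7, and the lowest value was in txnrd1-/- animal 81.

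Cela3b, another elastase of pancreatic juice, was read by 4 probe-sets that carried its symbol alone, whose values in animal 71 were 27.41, 8.225, 12.63 and 80.77. Their spread in 1 liver was thus close to 10-fold, and folds on this array cannot be taken as amounts of mRNA. The probe-sets at 12.63 and 80.77 are of the design that may also bind related genes, so the spread may not lie within Cela3b alone. In the other 7 livers the probe-set that read 80.77 lay between 0.626 and 1.433, and the one that read 8.225 lay between 0.840 and 1.148. The probe-set shared with Cela3a stood at 0.881, 1.338, 0.946 and 0.903 in txnrd1-/- livers, against 1.057, 95.96, 0.812 and 1.061 in controls, and cannot be assigned to either elastase.

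Prss2, a trypsinogen, was read by 4 probe-sets, at 16.03, 6.369, 9.595 and 9.333 in animal 71. Over the other 7 livers the first of these ran from 0.738 to 1.225, and the second, which was the steadiest, from 0.920 to 1.083. The mean of the 4 probe-sets stood at 9.97-fold the median of the other 7 livers. Trypsinogens are a family of near-identical copies, and 3 of these probe-sets are of the design that may also bind other family members, so the assignment to Prss2 is uncertain.

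Cela1, an elastase whose mRNA is also made outside the pancreas, was the exception. It read 1.028, 0.611, 1.034 and 0.576 in txnrd1-/- livers, against 1.669, 2.756, 0.381 and 0.972 in controls. Animal 71 was highest here too, but only 2.84-fold above the median of the other 7 and close to animal 70. Cela1 also varied most among the other livers, with an SD of 0.71 on the log2 scale over 7 livers, larger than that of 98.7% of genes. Across all 17 probe-sets Cela1 was the only one under 4-fold in animal 71. The probe-set nearest inside that line was 1 of Prss2, at 6.40-fold.

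Both carboxypeptidases stood high in animal 71. Cpb1, which removes basic residues from the end of peptides, read 1.048, 1.239, 0.905 and 0.950 in txnrd1-/- livers, against 0.816, 61.98, 0.752 and 1.133 in controls. Genes were read as means of their probe-sets with 1 symbol. On that reading no gene of the 18201 stood farther above the other 7 livers in animal 71 than Cpb1, at 65.2-fold. Some single probe-sets stood farther, such as 1 of Cela3b at 82.2-fold and the one shared with Cela3a at 101-fold. A probe-set shared by pancreatic amylase genes read 169.8 in animal 71. Its median over the other 7 livers was 0.963, but control animal 80 stood at 53.2. Cpa1, which removes aromatic and aliphatic residues, read 0.941, 1.650, 1.045 and 0.846 in txnrd1-/- livers, against 0.836, 26.27, 0.895 and 1.159 in controls. It ranked next among the genes, at 27.9-fold, and among the remaining livers the highest value was in txnrd1-/- animal 72.

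The enzymes of lipid digestion were also highest in animal 71. Cel, the carboxyl ester lipase that bile salts activate, was the steadiest gene of the 9 apart from animal 71. It stood at 1.013, 1.084, 0.976 and 0.990 in txnrd1-/- livers, against 1.005, 19.95, 0.830 and 1.000 in controls. Colipase (Clps), the cofactor that anchors pancreatic lipase to fat droplets, was read by a pair of probe-sets. The one read 1.010, 0.979, 1.034 and 0.870 in txnrd1-/- livers, against 1.195, 17.59, 0.788 and 0.868 in controls. The other read 8.853 in animal 71 and 1.616 in txnrd1-/- animal 72, with the remaining 6 livers at or below 1.056.

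Averaged over the 9 genes on the log2 scale, the livers of txnrd1-/- animals 69, 72, 73 and 81 stood at 0.00, 0.06, 0.00 and -0.29. The controls 70, 71, 80 and 82 stood at 0.02, 4.05, -0.31 and 0.03. Animal 71 was thus 16.6 times the usual ratio, with an SD of 1.22 on the log2 scale over the 9 genes. After quantile normalization its mean was 2.18 in place of 4.05. In animal 81 the lowest genes were Cela1 (-0.80) and Cela2a (-0.72), and in animal 80 Cela1 (-1.39). Without Cela1, 108 of 112 values of the other 7 livers lay within 1.5-fold of 1, and all 112 ran from 0.606 to 1.650. The SD of a gene over those 7 livers exceeded the median of all genes (0.20 on the log2 scale) for 4 of the 9.

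By genotype, the mean of the 9 genes was -0.06 ± 0.16 in txnrd1-/- livers and 0.95 ± 2.08 in controls (SD, n = 4 each), a difference of -1.004 on the log2 scale. Without animal 71 the control mean was -0.09 ± 0.19 (SD, n = 3) and the difference was 0.03. After quantile normalization the difference was -0.55 with all 8 livers. With all livers 9 of 9 genes were lower in txnrd1-/- livers, from -0.55 for Cela1 to -1.32 for Cpb1. Without animal 71 the difference was positive for 7 and negative for 2, and its size did not exceed 0.21. Leaving out any other single animal kept all 9 genes lower.

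**Figure D2:**
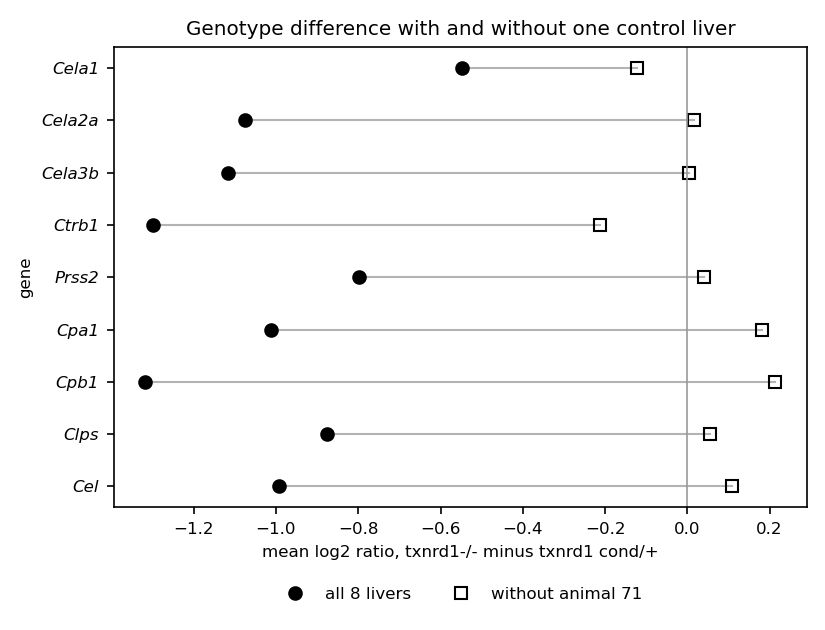
Mean log2 ratio of each enzyme in txnrd1-/- livers minus that in txnrd1 cond/+ livers (horizontal axis), with all 8 livers (filled circles) and without animal 71 (open squares); points are differences of group means and carry no error bars. The filled circles run from -0.55 to -1.32, and no open square lies farther than 0.21 from 0.

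Of the 17 probe-sets, 16 were lower by 1.5-fold or more in txnrd1-/- livers on group means, among 85 such probe-sets of 45037 tested (0.189%). The rule that chose the genes used this contrast, so nothing is read from that count. Without animal 71 there were 136 such probe-sets, 52 of them shared with the 85, and 0 of the 17 remained. In the limma fit over the whole array, 0 of the 17 were called at an adjusted p of at most 0.05 with a 1.5-fold difference, nor at an unadjusted p of at most 0.05, and nothing is read from this either. That fit called 12 probe-sets higher (0.0266%) and 0 lower, with 218 higher (0.484%) and 35 lower (0.0777%) at the unadjusted p.

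Other secreted proteins of the acinar cell were read from a list of 25, of which 17 had a probe-set with 1 symbol. Their mean log2 ratio in animal 71 was 1.52, against -0.37 to 0.12 in the other 7 livers, and 13 of 17 were highest there. In that liver 9 of 17 stood at least 2-fold above their own median, as did all 9 enzymes, against 0.324% of all genes. The list is not uniform: its median in animal 71 was 0.92, below its mean.

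Reg1, a lectin-like protein secreted by acinar cells, stood at 0.45, -0.07, 0.13 and -0.11 on the log2 scale in txnrd1-/- animals 69, 72, 73 and 81, against 0.06, 4.35, -0.47 and -0.33 in controls 70, 71, 80 and 82. Rnase1, the pancreatic ribonuclease, was at 3.94 in animal 71 and between -0.21 and 0.35 in the others. Zg16, a lectin of the zymogen granule, was at 3.52 there, and its next highest value was 0.85 in txnrd1-/- animal 72. Smaller values in animal 71 were those of Ctrl, a chymotrypsin-like protease (2.71), the tissue kallikrein Klk1 (1.55), the granule protein Sycn (1.46) and Cuzd1, a zymogen granule membrane protein (1.38). Members of the list that stayed near the other livers in animal 71 were Amy1 (0.26), Ctrc (0.14) and Spink1 (0.12). Amy1 is also expressed in liver. Spink1, a trypsin inhibitor, and Dmbt1, a mucosal scavenger protein, varied among the other livers, with Dmbt1 running from -2.92 in txnrd1-/- animal 81 to 1.28 in txnrd1-/- animal 69.

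A second control liver stood high for 2 of these mRNAs. The probe-set shared by the pancreatic amylase copies Amy2a1 to Amy2a5 read 0.963, 1.026, 0.798 and 0.507 in txnrd1-/- livers, against 2.392, 169.8, 53.2 and 0.531 in controls 70, 71, 80 and 82. Pnliprp1, a relative of pancreatic lipase, stood at 2.53 on the log2 scale in animal 71 and 1.44 in animal 80, with the other 6 livers between -1.21 and 0.39. In animal 80 the 9 enzymes were not high, with log2 ratios between -1.39 and 0.0058. A probe-set shared by the trypsinogens Try4 and Try5 read 98.62 in animal 71 and between 0.828 and 1.517 in the other 7 livers, animal 80 included. Another, shared by Prss1, Prss3, Gm10334 and Gm5771, read only 2.078 in animal 71 and between 0.909 and 1.463 in the other 7. Amylase and Pnliprp1 were thus the mRNAs that both control livers shared.

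Genes that mark the acinar cell without being secreted did not stand apart as a list. The list of 8 acinar factors and receptors, among them Ptf1a, Rbpjl, Bhlha15 and the cholecystokinin receptor Cckar, averaged 0.16 in animal 71, within the -0.19 to 0.19 of the other 7 livers, and 0 of 8 reached 2-fold. Ptf1a, the DNA-binding subunit of PTF1, was at 0.23 in animal 71 and at 0.35 in control animal 82. Pdia2 (0.54) and Erp27 (0.31) were highest in animal 71, with the other livers at most at 0.18 and 0.22. In txnrd1-/- animal 72, 5 of the 8 were highest. Whether these probe-sets could detect an mRNA of low abundance cannot be read from ratios.

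Lists for neighbouring organs were read in the same way. Islet genes (15 measured) averaged 0.20 in animal 71, against -0.15 to 0.22 in the other 7 livers. Of the 15, 7 were highest in animal 71, against 9.61% of all genes, and 0 reached 2-fold. In txnrd1-/- animal 72, 5 of the 15 were highest, and the share of all genes highest there was not counted. Duct genes (6 measured) averaged -0.16 in animal 71, against -0.13 to 0.18. Intestinal genes (11 measured) averaged 0.32, above the -0.28 to 0.17 of the others, with 1 of 11 at 2-fold, the goblet cell peptide Tff3. Tff3 varied among the livers, at 1.03 in animal 71, 0.98 in control animal 70 and -1.37 in txnrd1-/- animal 81. Skeletal muscle genes averaged 0.21, as did the highest of the others. Stomach, adipose and blood genes averaged 0.07, 0.10 and 0.07 in animal 71. The hepatocyte list (10 measured) was at -0.04 in animal 71 and between -0.29 and 0.16 in the others. Its genes were mixed in animal 71, from -0.38 for Tat to 0.14 for Hnf4a. Each array was scaled to a median near 1, so this list cannot tell whether hepatocyte RNA made up less of a sample. None of these ratios tells a level, and what part other cells or tissue had in the values of animal 71 was not tested.

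**Figure D3:**
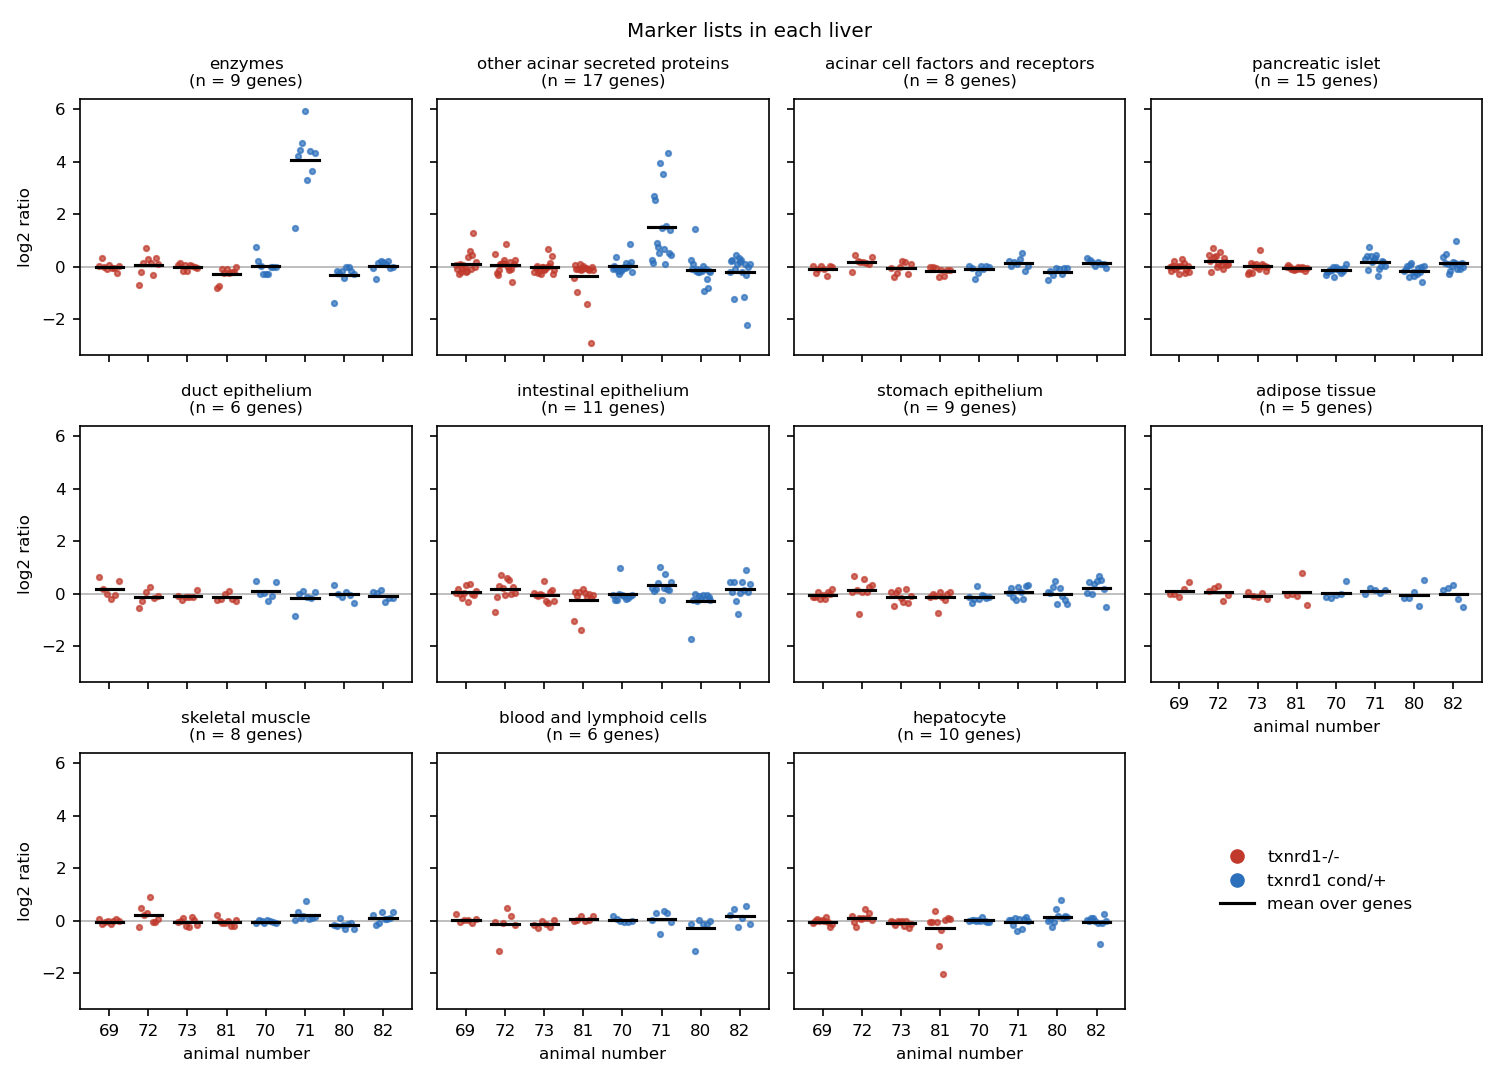
Log2 ratio of each gene of the enzyme set and of 10 marker lists (vertical axis) in each liver (animal numbers, txnrd1-/- left in red, txnrd1 cond/+ right in blue), with black bars for the mean over genes. The enzymes average 4.05 and the other acinar secreted proteins 1.52 in animal 71, and no other list mean in any liver exceeds 0.32.

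Looking from the whole array, 16 genes stood at least 4-fold above their median over the livers in animal 71 (0.0879% of genes). They were 8 of the 9 enzymes, the listed acinar genes Reg1, Rnase1, Zg16, Ctrl and Pnliprp1, and Reg3b, BC147527 and 2210010C04Rik. Reg3b is a secreted antibacterial lectin of the same family as Reg1. In txnrd1-/- animals 69, 72, 73 and 81 the same count was 4, 5, 1 and 15 (0.022%, 0.0275%, 0.00549% and 0.0824%). In controls 70, 80 and 82 it was 14, 2 and 9 (0.0769%, 0.011% and 0.0494%). Those 7 livers held 0 enzymes and 0 listed acinar genes at this fold. The counts leave out probe-sets shared between genes, so the amylase probe-set at 53.2 in animal 80 is not among them. Among the 9160 probe-sets with no gene name, 7 reached 4-fold in animal 71, against 2, 5, 0 and 4 in txnrd1-/- animals 69, 72, 73 and 81 and 5, 2 and 2 in controls 70, 80 and 82. The highest read 32.03 and 15.69 in animal 71, where the other livers did not exceed 1.273 and 1.088. Some of the rest were as high in txnrd1-/- animal 72, such as one at 9.56 there and 8.473 in animal 71.

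**Figure D4:**
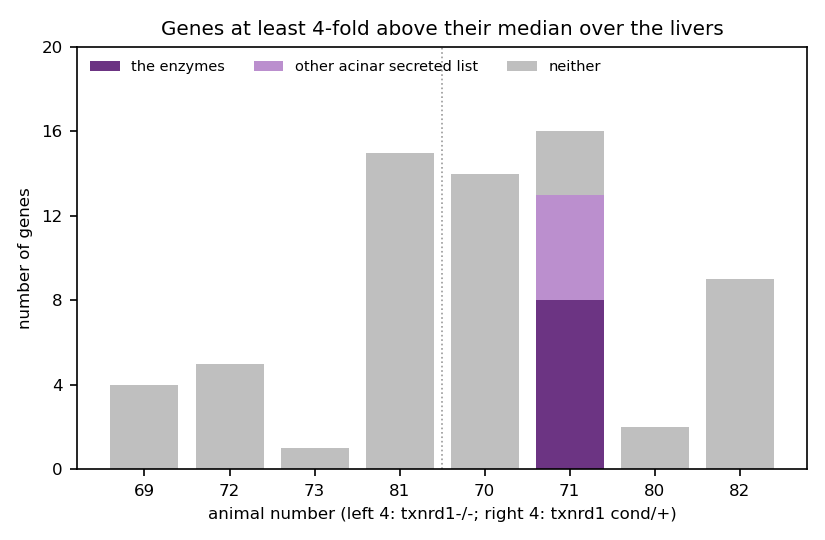
Number of genes at least 4-fold above their own median over the 8 livers (vertical axis) in each liver (animal numbers, txnrd1-/- left of the dotted line, txnrd1 cond/+ right), split into the enzymes, the other acinar secreted list and neither. Of the 16 genes in animal 71, 8 are enzymes and 5 are on the list, while the 15 genes of animal 81 and the 14 of animal 70 hold none of either.

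The genes whose pattern over the 8 livers came nearest to the mean of the enzymes were ranked by the mean absolute difference of median-centred log2 ratios, over 18192 genes other than the 9. Of the 20 nearest, 8 were on the list of other acinar secreted proteins and 0 on any other list. The first were Rnase1 at a distance of 0.15, 2210010C04Rik at 0.20, Reg1 at 0.22, Reg3b at 0.24 and Zg16 at 0.28, against a median of 0.68 over all genes. Reg2 and Reg3a, also of the Reg family, followed at 0.45 and 0.49. Within the 20, 14 stood at least 2-fold above their median in animal 71 and 6 did not, so the end of the ranking holds genes with smaller values there. Those 6 were still highest in animal 71, from 0.43 for Tmed6 to 0.80 for Gm13032. On the same measure the enzymes themselves lay between 0.09 for Cel and 0.73 for Cela1, and Cela1 was farther from the mean of its own set than the median gene.

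**Figure D5:**
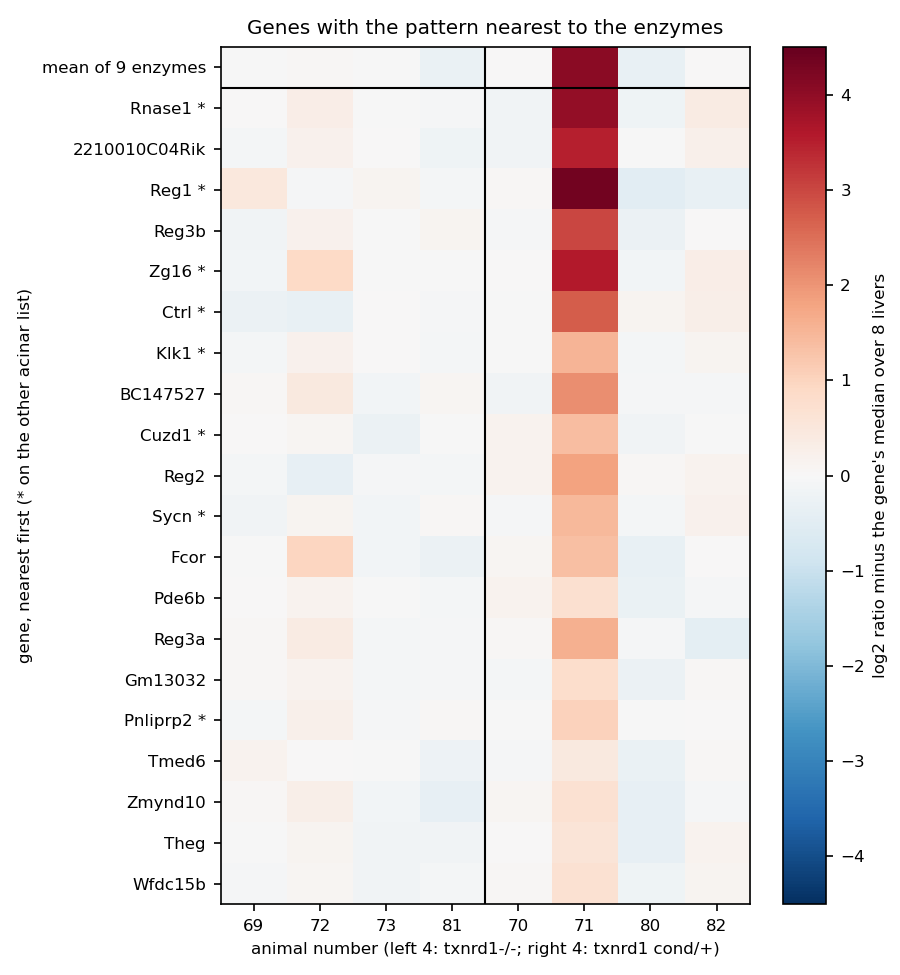
Log2 ratio minus the median of the gene over 8 livers (colour) for the mean of the 9 enzymes and for the 20 nearest genes (rows, nearest first, an asterisk for the other acinar list) in each liver (columns, txnrd1-/- left of the line, txnrd1 cond/+ right). The column of animal 71 is the high one in all 20 rows, from 4.36 for Reg1 to 0.43 for Tmed6.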

How the data were processed

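Liver RNA of 8 mice, 4 per genotype, was read on 1 Affymetrix mouse array each. The authors deposited ratios, scaled so that each array and each probe-set has a median near 1; per the labels RMA was used and the study's methods name GeneSpring, with the version of RMA not given in the sources used here. Ratios hold no signal level, and the minimum signal of the study was left out. Of 45101 probe-sets, 64 controls were left out; 34957 of the rest carried 1 symbol in the platform annotation (updated through RefSeq), 920 several and 9160 none. 5 empty values were left empty.

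Log2 ratios were averaged over the probe-sets of a gene with 1 symbol. All 45037 probe-sets were fitted with limma 3.58.1 (lmFit and eBayes, 2-sided, Benjamini-Hochberg) in R 4.3.3, tested on simulated data. Figures used matplotlib 3.10.9. The enzymes and the 10 marker lists were chosen with earlier results of these data known. Named genes are every enzyme probe-set, listed genes, the 20 nearest genes and those 4-fold above their median in a liver (the 10 highest where there are more; the 6 below them in animal 71 are named after their values were seen). Alternatives were quantile normalization, another choice of probe-set, the median over genes, other folds and leaving out each animal; the median over the other 7 livers and the count of probe-sets lower by 1.5-fold without each animal were chosen after seeing the data. Each array is a separate animal, and precision is limited by how many arrays there are.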

Additional observations from a re-analysis of the deposited data

Results flagged for a closer look

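The gap of 1 liver to the nearest of the other 3 in its genotype was large for its whole range (Dixon's criterion) in 13 of 40 groups of 4 livers that were examined. Chance gives this in about 1 in 20 groups, but 13 of 40 cannot be compared with that rate. The enzymes were chosen for their values in these livers, and the marker lists were chosen with earlier results of these data known. The groups also share the same livers, and the enzyme mean repeats its genes. For the enzymes and the lists alike the criterion is therefore a description and no test. In 10 of the 13 the liver was animal 71 among the txnrd1 cond/+ controls. Its log2 ratio was 4.24 for Cela2a, 4.45 for Cela3b, 4.72 for Cpa1, 5.95 for Cpb1 and 3.29 for Prss2. It was 4.42 for Ctrb1, 3.64 for Clps and 4.32 for Cel, and the means were 4.05 for the 9 enzymes and 1.52 for the other acinar secreted proteins. Cela1 was the only enzyme for which animal 71 did not stand apart in this way. The other 3 were in txnrd1-/- livers and small: the enzyme mean was lowest in animal 81, at -0.29, the duct list highest in animal 69, at 0.18, and the skeletal muscle list highest in animal 72, at 0.21.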

How the results depend on the processing

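Of 287 recomputed values, 38 moved by over 1 SD over the replicates or, for counts, over 1.5 times. The control SD of the enzymes (2.08) is made by animal 71 itself, so this measure does not register the removal of that liver, and how many values did not move says nothing about stability. The enzyme difference between txnrd1-/- and control livers ran from -1.42 to 0.03 when each animal was left out, with 0.03 without animal 71, and was -0.55 after quantile normalization, which set the mean of animal 71 at 2.18. The 12 probe-sets called in limma became 3 to 8 when an animal was left out, with 0 enzyme probe-sets in each. The 85 probe-sets lower by 1.5-fold became 91 to 259. Of these counts, 136 was without animal 71, 168 without animal 69 and 259 without animal 82. The median of the other acinar list in animal 81 was -0.078. Counts of genes 4-fold above their median, in animals 69, 72, 73, 81, 71 and 80, were 15, 3, 6, 9, 10 and 8 after quantile normalization, with 7 enzymes among the 10. With the probe-set of largest variance they were 17, 26 and 24 in animals 72, 81 and 70. At 2-fold they were 50, 68, 19, 111, 83, 59, 60 and 36 in animals 69, 72, 73, 81, 70, 71, 80 and 82. At 8-fold they were 2, 0, 4, 3, 0 and 3 in animals 69, 72, 81, 70, 80 and 82. Against the median of the other 7 livers they were 11, 8, 7 and 5 in animals 69, 72, 73 and 80. The cause of these moves was not tested. No paired analysis was made because the labels name no pairs of animals.

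Ratios keep no signal level, and a ratio of 1 does not tell expression from background. The folds of animal 71 are not amounts of mRNA. Each liver was read once, and no second piece or second array of animal 71 was analysed here.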
